A study of Mus musculus with 77 samples.

Results

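Ubiquitin enzymes and ligases are described here through the enhancers assigned to their genes. The members are the genes of an enhancer table whose symbols begin with Ube2 and a letter, or with Usp, Trim or Rnf and a digit, and that rule uses no measured value. They are 141 of 10096 genes (1.4%), with 567 of 44002 enhancers (1.29%). The Ube2 family holds 24 genes, the Usp family 34, the Trim family 30 and the Rnf family 53. A symbol pattern is not a biochemical class: Usp6nl matches it, yet encodes a Rab GTPase-activating protein and no deubiquitinase.

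The study followed mouse bone marrow cells from multipotent progenitors to granulocytes with 53 ChIP-seq and 24 RNA-seq libraries. The groups used here, all sorted from bone marrow by surface markers, were preGM of the genotype CEBPA KO and, all wild type (WT), LSK cells (Lin-, Sca-1+, ckit), preGM (Lin-, Sca-1-, ckit+, CD150-, CD105-), GMP (Lin-, Sca-1-, ckit+, CD150-, FcgRII/III+) and granulocytes (Mac1+, Gr-1+). The labels name no allele, Cre driver, strain or age, and none of these is given here. For each enhancer the table holds 1 signal value per group: the acetylation H3K27ac, found at active enhancers, and the methylation H3K4me1, found at active and poised ones, in all 5 groups. PU.1, a myeloid transcription factor, was given for KO preGM, LSK, WT preGM and GMP, and CEBPA, the factor targeted in the KO, for WT preGM. Each of these 15 ChIP columns matches a group of 2 listed libraries that the table does not separate. It also gives 1 expression value per gene and group. With 1 value per group no difference could be tested and no spread between libraries is known, so every statement below describes these columns.

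Ubiquitin is passed from an E1 enzyme to an E2 conjugating enzyme, the class most Ube2 genes encode. An E3 ligase then directs it to a substrate. Most Trim and Rnf genes encode ligases with a RING domain, which bring the E2 and the substrate together, and Usp genes mostly encode deubiquitinases, which remove ubiquitin again. The system marks proteins for the proteasome and also steers DNA repair, histone modification, endosomal sorting and innate immune signalling. Granulocytes are short-lived cells that no longer divide, and progenitors divide often.

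A member's ChIP value below is the mean over its enhancers, in the authors' signal unit. A log2 ratio was taken with a pseudocount added to both values and is given less the median log2 ratio of all genes, and a member counts as higher or lower where that ratio is at least 1 in size, a 2-fold difference. The subtracted median reached 0.42 for H3K27ac in GMP over preGM and -0.40 for PU.1 in KO over WT preGM. Adjacent steps share a column, and the KO comparisons share the WT preGM ChIP columns with the stage steps, so ratios from them are not independent. The expression columns form a stage set and a genotype set, each with a WT preGM column, and these 2 columns correlated at only 0.783 (Pearson, log2 values, 10096 genes). Usp1, for example, stood at 4500 in the WT preGM column of the stage set and at 322 in that of the genotype set, so values were compared within a set only. The unit of the expression values and the libraries behind them were not given in the sources used here. Expression levels were not compared between single genes, and only medians of the members and of all genes are set side by side.

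The granulocyte and GMP columns matched their labels at granulocyte and granule markers, and LSK and preGM did so only in part. In preGM over LSK none of the 7 stem and progenitor markers was 2-fold lower in H3K27ac or expression. Expression of all 4 primary granule genes and of 3 of the 7 mature granulocyte markers was 2-fold higher in that step. In GMP over preGM 5 of the 7 stem and progenitor markers were lower in expression. All 7 mature granulocyte markers were higher in granulocytes than in GMP in both H3K27ac and expression, and their expression summed to 45945 in granulocytes and 1040 in GMP. All 4 primary granule genes were lower in both, with an expression sum of 3318 in granulocytes and 38362 in GMP. Cebpa itself had an expression value of 48.2 in KO preGM and 208 in WT preGM, a log2 ratio of -1.49. Of the 5 monocyte and macrophage markers 4 were lower in expression, with a sum of 2346 in granulocytes and 12903 in GMP. The 3 T and NK cell markers in the table summed to 266 in granulocytes and 1809 in GMP, with Nkg7 lower (205 in granulocytes, 1785 in GMP). The 3 erythroid and megakaryocyte markers all had a positive ratio and summed to 388 in granulocytes and 218 in GMP, and Klf1 was 2-fold higher (167 in granulocytes, 64.1 in GMP). The 2 B cell markers summed to 49.6 in granulocytes and 37.4 in GMP. No marker was listed at 0 in any group, and the part of these lists in the members' values was not tested. In sorted populations, fewer cells of a type and less RNA per cell cannot be told apart.

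Of the 4 comparisons made, granulocytes over GMP held the most members with a 2-fold difference in expression. Expression of 24 members was higher in granulocytes and of 31 lower, 39.0% of the members, against 29.9% of all genes (12.2% higher and 17.7% lower). In the other 3 expression comparisons at most 6 members passed. The median member was near 0 (0.05), but the interquartile range of the members ran from -0.77 to 0.60, against -0.62 to 0.34 for all genes. The median expression value was 251 for members and 113 for all genes in GMP, and 237 and 90.6 in granulocytes. With the pseudocount of 40, genes with low values reach 2-fold less easily. The part of this in the larger share and wider range of the members was not tested. The families leaned differently: 10 of 34 Usp genes were lower and 6 higher (median -0.33), while 12 of 53 Rnf genes were higher and 10 lower (median 0.34). Among Trim genes 3 were higher and 7 lower of 30, and among Ube2 genes 3 higher and 4 lower of 24. These family counts were not tested against each other.

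**Figure D1:**
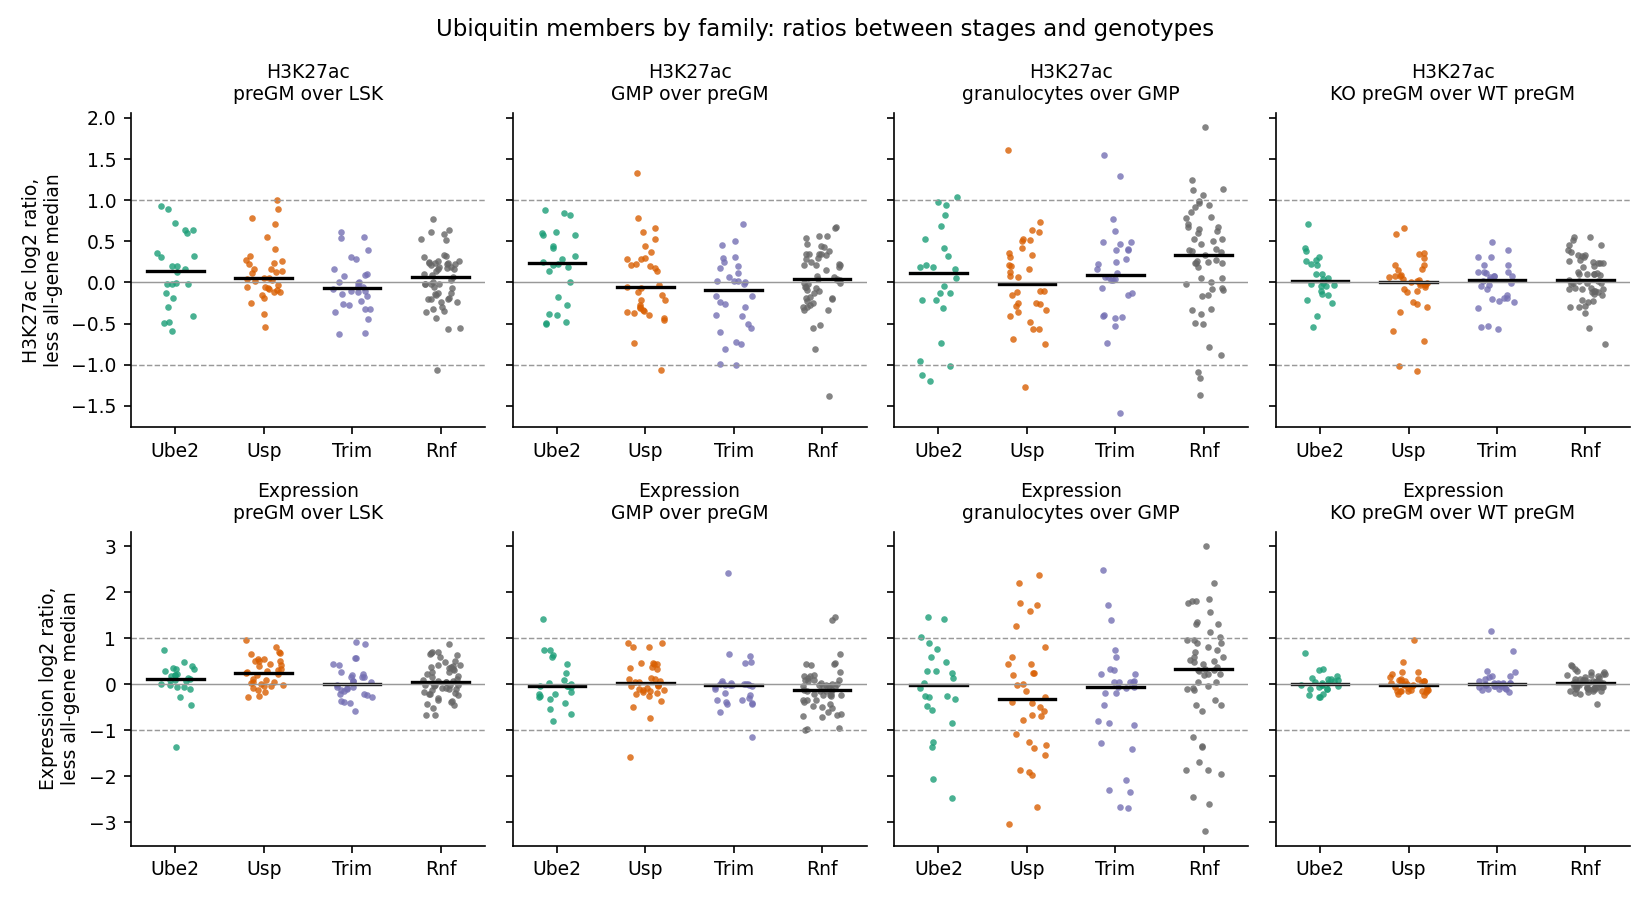
Log2 ratios of H3K27ac (upper row) and expression (lower row) less the all-gene median, 1 point per member, by family, with the family median as a black bar and the 2-fold limits dashed. The panel of expression in granulocytes over GMP has the widest spread, with 24 members above and 31 below the limits, and the panels of KO over WT preGM the narrowest.

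Among the E2 enzymes, Ube2e3 and Ube2e1 had the lowest ratios of granulocytes over GMP. Ube2e3 expression was 1695 in LSK, 1854 in preGM, 1494 in GMP and 223 in granulocytes (log2 ratio of granulocytes over GMP -2.47), and Ube2e1 stood at 370 in granulocytes and 1768 in GMP (-2.07). Ube2t, the E2 of the Fanconi anaemia pathway of DNA crosslink repair, was 14.9 in granulocytes and 107 in GMP (-1.36). Ube2k was 915 in granulocytes and 2371 in GMP (-1.27). The 3 higher E2 genes were Ube2q1 (1314 in granulocytes, 476 in GMP), Ube2h, the E2 of the CTLH ligase complex (995 in granulocytes, 367 in GMP), and Ube2m, which conjugates the ubiquitin-like protein NEDD8 (201 in granulocytes, 85.4 in GMP).

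The deubiquitinases included genes far above and far below 0. Usp1, which deubiquitinates the DNA repair proteins FANCD2 and PCNA, was 2688 in LSK, 4500 in preGM, 6295 in GMP and 690 in granulocytes (granulocytes over GMP -3.05). It thus stood at its highest value in GMP and at its lowest in granulocytes. Usp10 was 45.5 in granulocytes and 535 in GMP (-2.68), and Usp14, which works on the proteasome, 313 in granulocytes and 1318 in GMP (-1.87). Usp16, a histone H2A deubiquitinase, was 149 in granulocytes and 452 in GMP (-1.31), and Usp7 was 1342 in granulocytes and 3035 in GMP (-1.08). Usp32, a membrane-anchored deubiquitinase of the endosomal system, had the highest ratio: its expression was 374 in LSK, 391 in preGM, 393 in GMP and 2101 in granulocytes (2.38). Usp18, which removes the ubiquitin-like protein ISG15 and damps type I interferon signalling, followed with 242 in granulocytes and 24.6 in GMP (2.19). Usp46 (907 in granulocytes, 251 in GMP), Usp4 (664 in granulocytes, 184 in GMP), Usp15 (350 in granulocytes, 97.05 in GMP) and Usp21 (240 in granulocytes, 83.25 in GMP) completed the higher ones.

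The Rnf ligases held the highest and the lowest expression ratio of all members. Rnf167, a ligase of endosomes and lysosomes, had the highest (3.01): its expression was 72.6 in LSK, 68.2 in preGM, 58.4 in GMP and 713 in granulocytes. Of its relatives with a lumenal protease-associated domain, named after their values were seen, Rnf130 was higher with 2078 in granulocytes and 614 in GMP, and Rnf149 with 1751 in granulocytes and 494 in GMP. Rnf13 did not reach 2-fold (1313 in granulocytes, 771 in GMP, 0.81), nor did Rnf150 (37.9 in granulocytes, 49.7 in GMP, -0.13). Of the RING-between-RING ligases, Rnf144a was 1807 in granulocytes and 381 in GMP (2.20). Rnf19b, of the same type, was 334 in granulocytes and 72.1 in GMP (1.81). Rnf217, of the same type and known to act on the iron exporter ferroportin, had the lowest ratio (-3.20), with 163 in LSK, 286 in preGM, 834 in GMP and 50.7 in granulocytes. Also of this type, Rnf14 was 126 in granulocytes and 525 in GMP (-1.69), and Rnf216 194 in granulocytes and 80.2 in GMP (1.03). Rnf144b and Rnf19a, of this type too, did not reach 2-fold. Rnf157 was 29.4 in granulocytes and 402 in GMP (-2.60). Rnf168, which ubiquitinates histone H2A at DNA double-strand breaks, was 110 in granulocytes and 814 in GMP (-2.44), and Rnf7, the RING subunit of cullin 5 ligases, 393 in granulocytes and 1622 in GMP (-1.87).

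Of the Trim genes, Trim44, Trim45, Trim27, Trim28 and Trim35 were the lowest, with log2 ratios of -2.70 to -2.08. Trim28, the corepressor KAP1 that silences retroelements, stood at 544 in granulocytes and 2992 in GMP. Trim44, an atypical family member with no RING domain and a ubiquitin-binding zinc finger, stood at 94.8 in granulocytes and 877 in GMP. The 3 higher Trim genes were Trim11 (737 in granulocytes, 107 in GMP), Trim12a, a mouse relative of the retroviral restriction factor TRIM5 (580 in granulocytes, 158 in GMP), and Trim26 (187 in granulocytes, 50.8 in GMP).

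A list of interferon-linked members, drawn up with earlier results of these data known, had 10 of its 22 genes in the table. In granulocytes over GMP 9 of the 10 had a positive expression ratio (median 0.65), and Usp18, Trim12a and Trim26 were at least 2-fold higher, 3 of 10 against 12.2% of all genes. Trim25, a ligase of the RNA sensor RIG-I, was the exception with 2410 in granulocytes and 3478 in GMP. In GMP over preGM none of the 10 was above 0 (median -0.43), and Usp18 (24.6 in GMP, 152 in preGM) and Trim14, an adaptor of antiviral signalling (161 in GMP, 397 in preGM), were at least 2-fold lower, 2 of 10 against 5.76% of all genes in either direction. Both steps contain the GMP column, so a low value there moves both. Usp18 was 66.7 in LSK, 152 in preGM, 24.6 in GMP and 242 in granulocytes, and Trim14 was 281 in LSK, 397 in preGM, 161 in GMP and 248 in granulocytes. Of the 12 members that act on histone ubiquitin or chromatin, 1 was higher in granulocytes (Usp21) and 4 were lower (Rnf168, Usp16, Usp7 and Trim28), although the median was positive (0.44). Those 5 of 12 stand against 29.9% of all genes in either direction.

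H3K27ac at the members' enhancers was at least 2-fold higher in granulocytes than in GMP for 9 members and lower for 8. That is 12.1% of the members, against 15.3% of all genes, so 2-fold differences were no more frequent than elsewhere. The highest ratio was at the single enhancer of Rnf112, at 4.08 in granulocytes and 0.584 in GMP (1.89). Its expression did not follow, at 33.3 in granulocytes and 34.6 in GMP. The strongest H3K27ac of all members, averaged over the 5 columns, was at the single enhancer of Rnf114, with 11.3 in LSK, 17.7 in preGM, 23.8 in GMP and 33.5 in granulocytes, and in the Usp family at that of Usp19, with 7.28 in LSK, 9.28 in preGM, 16.6 in GMP and 15.4 in granulocytes. Rnf40, part of the histone H2B ligase, was 11.3 in granulocytes and 4.72 in GMP, and Rnf214 was 21.0 in granulocytes and 9.17 in GMP. Ube2r2, an E2 of cullin ligases, was 0.481 in granulocytes and 1.98 in GMP (-1.19), while its expression was 398 in granulocytes and 230 in GMP.

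H3K27ac and expression ratios were correlated in this step. Across the 141 members Pearson's r was 0.551 and Spearman's rho 0.494, against 0.456 and 0.433 over all 10096 genes. Of the 141 members 91 had the same sign in both, close to the share of all genes (64%). The points share all 4 columns, and genes are not independent replicates. In the other 3 comparisons Pearson's r was between 0.103 and 0.132 over the members. Of the 9 members at least 2-fold different in both, 4 were higher in both (Usp32, Trim26, Trim12a and Rnf11) and 5 lower in both (Trim44, Rnf217, Usp10, Rnf168 and Ube2e3), 2.84% and 3.55% of the members against 3.01% and 3.70% of all genes. No member was 2-fold higher in the one and 2-fold lower in the other. Such genes were rare among all genes too, with 0.228% higher in H3K27ac and lower in expression and 0.0693% the reverse.

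**Figure D2:**
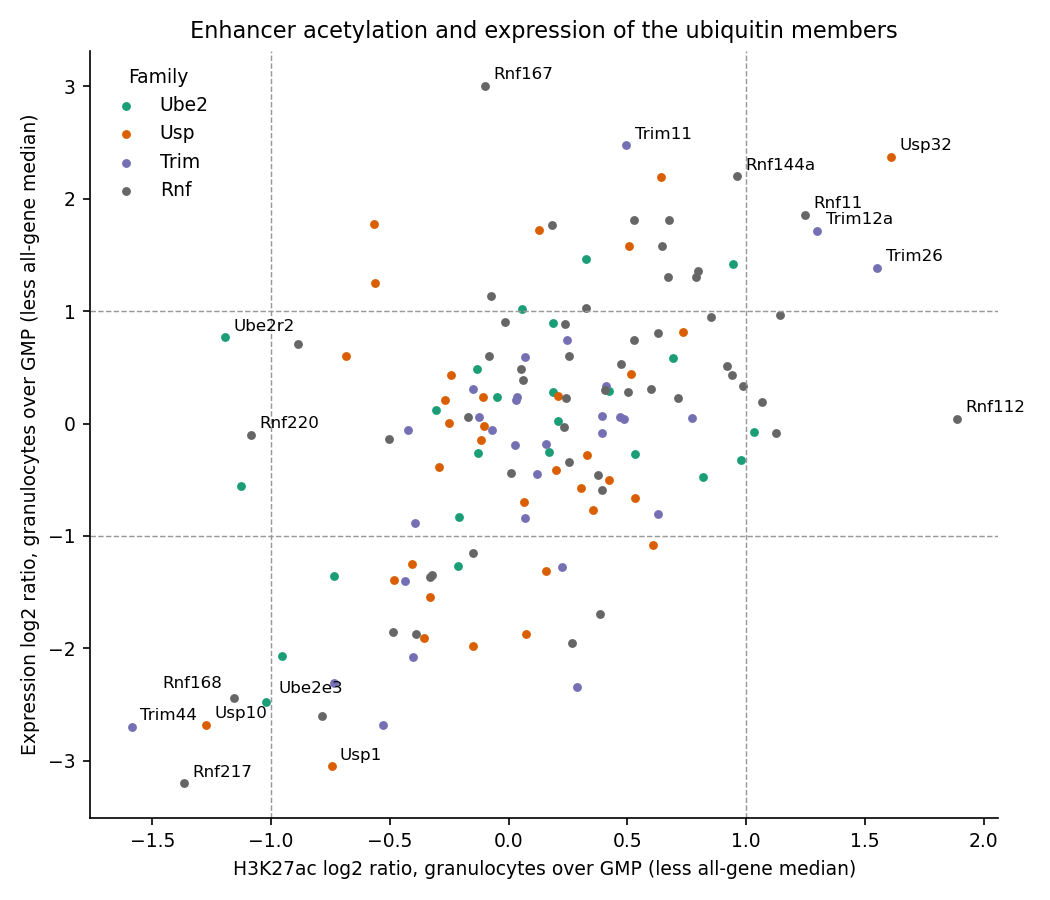
Log2 ratio of mean enhancer H3K27ac (horizontal axis) and of expression (vertical axis) in granulocytes over GMP, each less its all-gene median, 1 point per member, coloured by family, with 2-fold limits dashed. The upper right corner holds 4 members and the lower left 5, and the other 2 corners are empty.

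Usp32 H3K27ac was 2.08 in LSK, 5.26 in preGM, 4.08 in GMP and 14.0 in granulocytes, from 1 enhancer. Trim26, a ligase of interferon signalling with 1 enhancer, had 2.31 in LSK, 4.23 in preGM, 3.08 in GMP and 10.5 in granulocytes. Trim12a, also with 1 enhancer, had 1.23 in LSK, 1.22 in preGM, 0.850 in GMP and 3.15 in granulocytes, and it was the only member with H3K4me1 at least 2-fold higher in granulocytes (7.04, against 1.52 in GMP). Rnf11, a small RING protein of the A20 complex that limits NF-kappaB, had a mean over 4 enhancers of 1.35 in LSK, 1.20 in preGM, 2.73 in GMP and 7.51 in granulocytes. All 4 had their highest H3K27ac and their highest expression in granulocytes. They were picked as higher there than in GMP, so only LSK and preGM could have stood higher.

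The 5 members lower in both had their highest H3K27ac in GMP. Trim44 was 3.26 in LSK, 4.06 in preGM, 4.98 in GMP and 1.20 in granulocytes. Usp10 was 3.23 in LSK, 3.59 in preGM, 6.29 in GMP and 2.22 in granulocytes, and Rnf168 was 2.41 in LSK, 4.40 in preGM, 8.18 in GMP and 3.31 in granulocytes. Ube2e3 was 1.88 in LSK, 4.42 in preGM, 7.12 in GMP and 3.18 in granulocytes. Rnf217 was 1.26 in LSK, 1.38 in preGM, 2.53 in GMP and 0.565 in granulocytes, and its expression was also highest in GMP. Expression of the other 4 was highest in preGM, not in GMP, and lowest in granulocytes for all 5. These 5 were picked as lower in granulocytes than in GMP, which favours a low place for granulocytes.

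**Figure D3:**
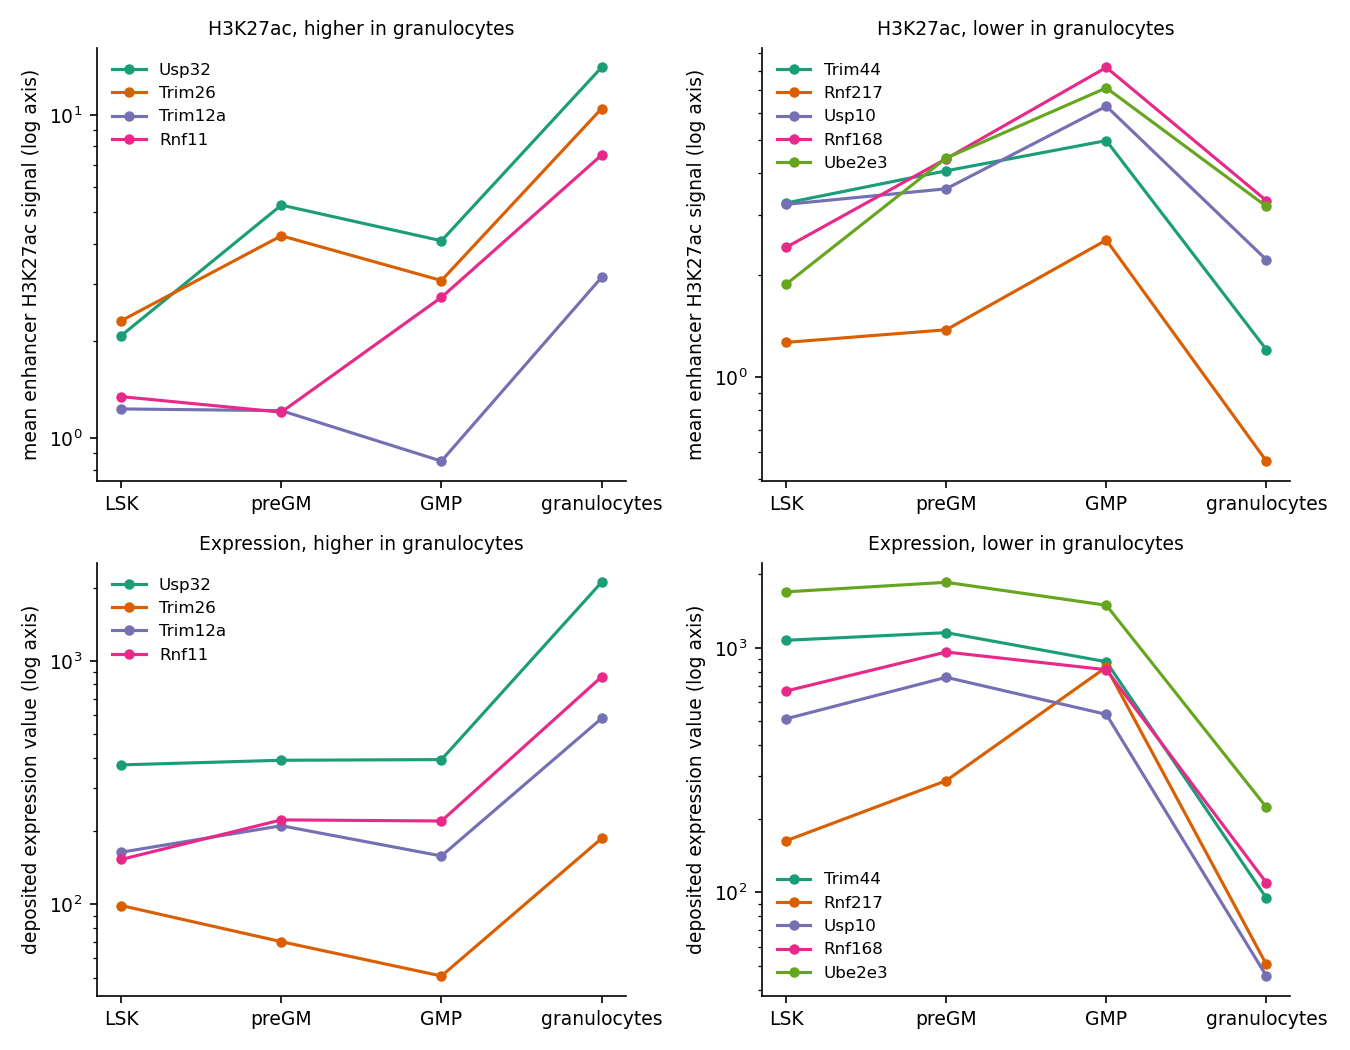
Mean enhancer H3K27ac signal (upper panels) and deposited expression value (lower panels), on log axes, by stage for the members at least 2-fold higher (left) or lower (right) in granulocytes than in GMP in both. All 4 members on the left have their highest point in granulocytes; H3K27ac of the 5 on the right is highest in GMP.

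Promoter sequence is shown for 4 of these members, the 2 higher and the 2 lower ones with the largest difference in both measures (ranked by the smaller of the 2 ratios) among those with an entry in the promoter table, to set the letters of genes that were higher beside those of genes that were lower. Each line gives the 250 bases before the RefSeq start of the gene (GRCm38.p6, on the gene's strand). Any match to GGAAGT on either strand, a short core that is not specific to PU.1, is in capitals. Usp32 (chr11:85139956-85140205, minus strand) and Trim26 (chr17:36836896-36837145, plus strand) were higher in granulocytes. Trim44 (chr2:102400901-102401150, minus strand) and Rnf217 (chr10:31609726-31609975, minus strand) were lower.
Usp32: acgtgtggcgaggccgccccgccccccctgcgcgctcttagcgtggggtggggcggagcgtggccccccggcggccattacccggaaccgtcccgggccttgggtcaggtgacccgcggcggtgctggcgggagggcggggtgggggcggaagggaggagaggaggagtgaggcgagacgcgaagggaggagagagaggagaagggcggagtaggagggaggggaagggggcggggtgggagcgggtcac
Trim26: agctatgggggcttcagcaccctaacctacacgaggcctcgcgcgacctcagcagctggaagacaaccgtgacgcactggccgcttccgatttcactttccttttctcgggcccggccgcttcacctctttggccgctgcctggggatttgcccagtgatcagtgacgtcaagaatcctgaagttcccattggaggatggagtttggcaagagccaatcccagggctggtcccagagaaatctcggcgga
Trim44: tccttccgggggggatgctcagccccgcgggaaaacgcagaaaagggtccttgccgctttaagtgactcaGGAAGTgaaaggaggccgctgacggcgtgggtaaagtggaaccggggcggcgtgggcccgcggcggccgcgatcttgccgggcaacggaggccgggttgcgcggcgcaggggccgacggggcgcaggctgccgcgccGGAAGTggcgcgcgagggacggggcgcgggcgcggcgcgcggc
Rnf217: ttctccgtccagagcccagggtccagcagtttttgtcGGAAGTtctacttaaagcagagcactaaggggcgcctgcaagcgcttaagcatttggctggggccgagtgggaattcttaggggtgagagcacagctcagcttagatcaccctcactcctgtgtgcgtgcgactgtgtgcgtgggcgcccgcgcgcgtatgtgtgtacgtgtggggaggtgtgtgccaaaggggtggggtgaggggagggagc
Usp32 and Trim26 held no match, Trim44 held 2 and Rnf217 held 1. Of the 3 other members with an entry that were different in both measures, Trim12a (higher) held 1 match, Rnf168 (lower) held 1 and Usp10 (lower) held none, so matches stood on both sides. The C/EBP motif TTGCNNCAA, searched on both strands, was in none of these 7. Over the 110 members with an entry, 27.3% held GGAAGT in these 250 bases, against 22.1% of the 7338 genes of the enhancer table with an entry, and 0.909% held TTGCNNCAA, against 1.35%. GGAAGT was present at 4 of 19 members with higher and 8 of 23 with lower expression in granulocytes. These are letters in a window and not binding sites, and PU.1 was measured at enhancers, in another build.

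Single enhancers showed what the means hide at the 12 member genes with at least 10 enhancers, 206 enhancers in all. Ratios for single enhancers are less the median of all enhancers. Over all 567 member enhancers, 51 were at least 2-fold higher in H3K27ac in granulocytes than in GMP (10.8% of all enhancers were) and 42 lower (8.24%). Positions are in build mm9 as the table gives them, and which gene an enhancer serves is the authors' assignment.

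At Rnf144a, Ube2v1, Ube2g2 and Rnf149 most enhancers had more H3K27ac in granulocytes. Rnf144a had 26 enhancers across 350964 bp, of which 24 had a positive ratio and 10 were at least 2-fold higher, at 1.58 to 8.60 in granulocytes and 0.141 to 3.15 in GMP. The authors' stage flags mark 16 of them as granulocyte only, and 9 of the 11 enhancers of Ube2g2, an E2 of degradation at the endoplasmic reticulum. Of all enhancers 21.2% have that flag. It may rest on the granulocyte signal itself, so it is no separate support for the higher ratios. Of the 10 enhancers of Ube2v1, an E2 variant with no catalytic site of its own that builds chains with a partner E2, 9 had a positive ratio and 5 were at least 2-fold higher. The largest, at chr2:167416476-167416857, was 8.92 in granulocytes and 0.990 in GMP. Ube2v1 expression was not higher, at 838 in granulocytes and 1117 in GMP. The largest ratio of any member enhancer was at Rnf149 (chr1:39659428-39659572), 6.80 in granulocytes and 0.321 in GMP (2.74), where PU.1 was 5.62 in GMP and 1.58 in WT preGM.

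Rnf220 and Usp3 held enhancers with the opposite pattern. At Rnf220, a nuclear RING ligase, 20 of 23 enhancers had a negative ratio and 8 were at least 2-fold lower. The lowest of all member enhancers (chr4:117167320-117167472) was 4.30 in LSK, 8.39 in preGM, 10.4 in GMP and 0.888 in granulocytes (-2.94), while its H3K4me1 was 16.2 in granulocytes and 4.56 in GMP. It was the only 1 of the 23 with 2-fold higher H3K4me1 in that step, in which 9 were at least 2-fold lower and the median was -0.54. Rnf220 expression was 120 in granulocytes and 140 in GMP, a small difference beside that in H3K27ac. Usp3, a histone H2A deubiquitinase, had 15 enhancers, split here by the ratio itself. The 4 that were at least 2-fold lower in granulocytes (0.550 to 3.16) than in GMP (3.20 to 18.6) were neighbours, at chr9:66358664-66360352. The other 11, with ratios of -0.26 to 0.94, lay at chr9:66360806-66464102 and began close to the last of the 4. Usp3 mean H3K27ac was 2.16 in granulocytes and 3.87 in GMP, yet its expression was 611 in granulocytes and 411 in GMP.

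**Figure D4:**
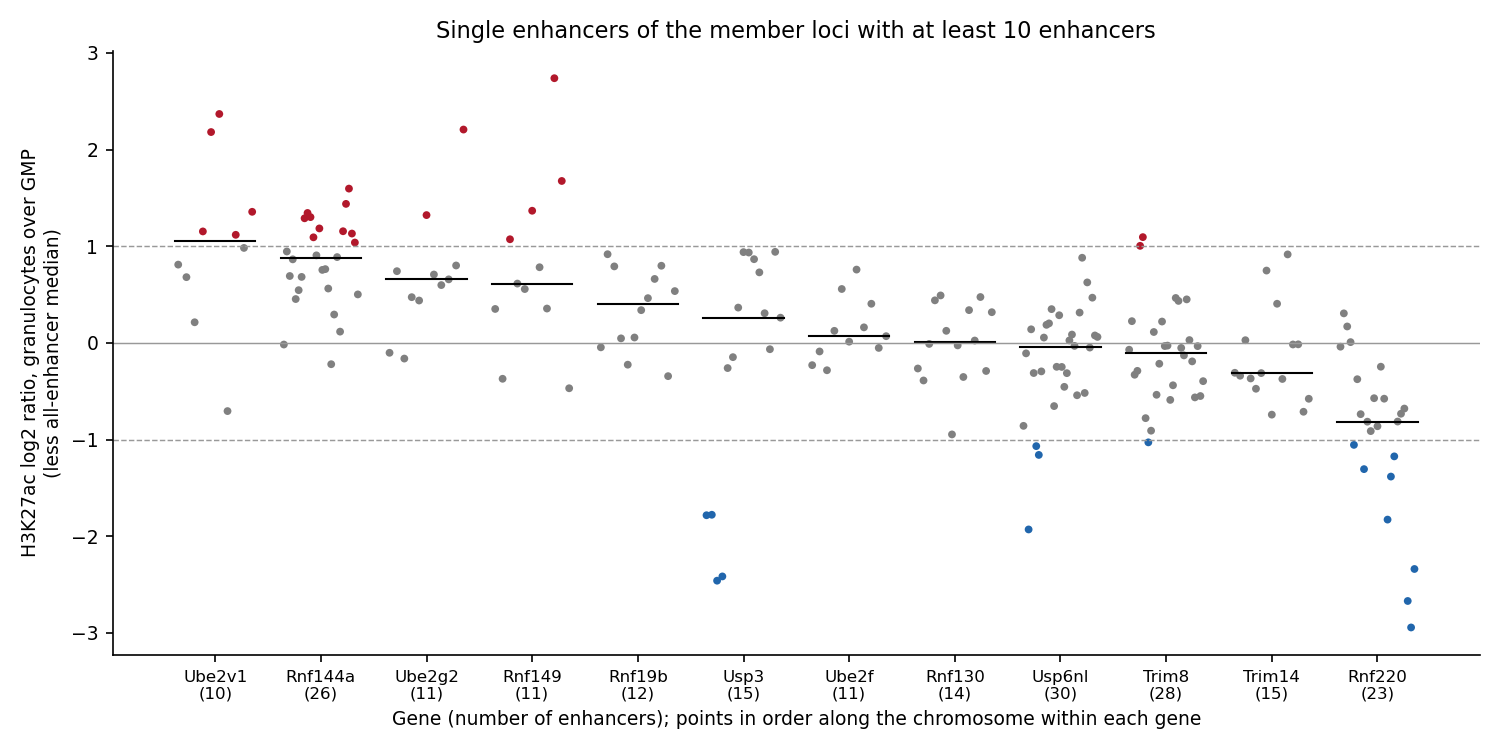
H3K27ac log2 ratio in granulocytes over GMP, less the all-enhancer median, at each enhancer of the 12 member genes with at least 10 enhancers, in order along the chromosome within a gene; red and blue points pass the 2-fold limits and bars are medians. At Rnf144a 10 of 26 enhancers are red, and at Usp3 the 4 blue ones lie together at one end.

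The other loci were mixed or flat. Usp6nl, with the most enhancers (30 across 450021 bp), had 14 with a positive ratio, 3 at least 2-fold lower and none higher, while its expression was 45.3 in granulocytes and 314 in GMP. Trim8, a ligase of cytokine signalling with 28 enhancers, had 2 higher and 1 lower. No enhancer of Rnf130, Rnf19b, Trim14 or Ube2f passed the limit in this step. For Rnf130 and Rnf19b this stood beside expression that was more than 2-fold higher in granulocytes.

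H3K4me1 was at least 2-fold lower in granulocytes than in GMP at 8 members and higher at 1, against 8.92% of all genes in either direction, of which 8.05% were lower. Without the subtraction of the all-gene median (0.34) the split was 4 higher and 1 lower. The lowest were Ube2o, 0.672 in granulocytes and 3.45 in GMP (-1.37), the brain-enriched Ube2ql1, 1.42 in granulocytes and 4.24 in GMP, and Rnf182, 0.877 in granulocytes and 3.23 in GMP. Only Ube2r2 was lower in both marks. In member enhancers H3K4me1 signal was lower where the enhancer was wider (Spearman -0.545 to -0.322 over the 5 columns, 567 enhancers), a relation that was weaker for H3K27ac (-0.132 to -0.0254). In GMP over preGM no member passed in H3K4me1, against 0.0594% of all genes, and in preGM over LSK none did either, against 0.0099%.

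In GMP over preGM few members differed 2-fold. In expression 4 were higher and 2 lower, against 5.76% of all genes. Trim45 had the highest ratio (2.41), with 58.4 in LSK, 76.0 in preGM, 583 in GMP and 52.8 in granulocytes, with its only high value in GMP. One of its 4 enhancers (chr3:100728620-100728838) had the highest H3K27ac ratio of all member enhancers in the step, 5.43 in GMP and 0.786 in preGM (1.75). Rnf144b (309 in GMP, 86.0 in preGM), Ube2w, an E2 that adds ubiquitin to protein N-termini (356 in GMP, 107 in preGM), and Rnf217 were also higher. In H3K27ac 1 member was higher and 3 lower, against 2.76% of all genes, and without the subtraction of the median 13 were higher and none lower. Usp28, a nuclear deubiquitinase, had 9.55 in GMP and 2.36 in preGM (1.33), and Rnf122 0.584 in GMP and 1.80 in preGM (-1.38). Usp28 expression was 87.5 in GMP and 76.0 in preGM. In PU.1 only Rnf112 passed, with 2.86 in GMP and 1.01 in preGM, against 0.644% of all genes, and the lowest was Rnf150 with 2.30 in GMP and 4.71 in preGM (-0.77).

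In preGM over LSK even fewer did. Only Ube2c, the E2 of the anaphase-promoting complex that drives exit from mitosis, passed in expression, with 140 in preGM and 415 in LSK (-1.37), against 2.39% of all genes. Most Usp genes had a slightly positive ratio, 26 of 34 with a median of 0.25, where the subtraction puts 50% of all genes above 0. Outside the symbol pattern 11 of 16 other deubiquitinases (median 0.19) and 10 of 13 cullin-RING genes (0.24) did too. The lean was thus not particular to the Usp family, although only 13 of 26 other RING ligases had it. The highest members were Usp25 (653 in preGM, 309 in LSK, 0.96) and, outside the Usp family, Trim21 (550 in preGM, 266 in LSK, 0.92). In H3K27ac Usp32 was higher (5.26 in preGM, 2.08 in LSK, 1.01) and Rnf112 lower (0.238 in preGM, 1.14 in LSK), against 0.545% of all genes. Without the subtraction of the median 2 were higher and none lower. In PU.1 none passed, against 0.703% of all genes, and 1 was higher without the subtraction. The highest were Rnf167 (5.97 in preGM, 2.65 in LSK, 0.65) and Rnf145 (6.63 in preGM, 3.18 in LSK, 0.57), followed by Trim7 (0.56) and Usp22 (0.49).

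Nearly all members lay within 2-fold in KO over WT preGM. In expression 1 of 141 was higher and none lower, against 0.683% of all genes, while 4 of the 5 monocyte and 3 of the 4 primary granule markers were lower in KO preGM, as was 1 of the 7 stem and progenitor markers (Flt3) and 1 of the 7 mature granulocyte markers (Cxcr2). The monocyte list summed to 332 in KO and 2511 in WT preGM and the primary granule list to 4714 in KO and 9108 in WT preGM, and the part of this in the members' values was not tested. The 3 T and NK cell markers all had a positive ratio and summed to 1819 in KO and 1254 in WT preGM, and Tcf7 was 2-fold higher (245 in KO, 74.1 in WT preGM). The member that passed was Trim13, a ligase anchored in the endoplasmic reticulum, with 1595 in KO preGM and 698 in WT preGM (1.15). Next came the interferon-linked Usp18 (322 in KO, 145 in WT, 0.97) and Trim12a (364 in KO, 203 in WT, 0.73) and the E2 Ube2h (311 in KO, 180 in WT, 0.67), none of which reached 2-fold. The interferon-linked list lay on both sides of 0: 5 of its 10 members were above 0, with a median of 0.05. Among members at or above the all-gene median the lowest was Ube2w (167 in KO, 210 in WT, -0.27).

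In H3K27ac 2 members were lower in KO preGM and none higher, against 0.258% of all genes. Usp33 was 0.273 in KO and 1.25 in WT preGM (-1.08). Its KO value lay below the pseudocount of 0.7, and the authors' stage flags mark its enhancer as granulocyte only. Usp32 was 2.40 in KO and 5.26 in WT preGM (-1.02). Each value rests on 1 enhancer, and without the subtraction of the median 1 of the 2 passed. Expression of both was not lower, at 443 in KO and 414 in WT preGM for Usp33 and 380 in KO and 310 in WT preGM for Usp32. The Usp32 value of WT preGM also enters its higher ratio over LSK, and its KO value lay near that of LSK (2.08). Among single enhancers the lowest was one of Rnf141 (chr7:117976321-117976700), in the authors' CEBPA class, with 0.344 in KO and 1.90 in WT preGM (-1.36). In WT preGM it had a CEBPA signal of 4.0, above 99.0% of all enhancers. The member enhancers with a stronger CEBPA signal stayed within 2-fold, at Rnf144a (-0.13 and -0.35), Rnf149 (-0.28) and Rnf6 (0.01). Over the 71 member enhancers of the CEBPA class the median was 0.02. The Rnf141 enhancer was the 1 of them at least 2-fold lower, against 0.89% of all enhancers in that class. Rnf150, with 3 enhancers, had 1.96 in KO and 1.03 in WT preGM (0.55). In H3K4me1 in KO over WT preGM no member passed, against 0.0099% of all genes.

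The PU.1 ratio of KO over WT preGM differed with the factor class that the authors gave the enhancers. The classes held 43 member enhancers with both factors (7.58%, and 9.21% of all enhancers), 106 with PU.1 (18.7% and 19.1%), 71 with CEBPA (12.5% and 12.3%) and 347 with neither (61.2% and 59.5%). The median PU.1 log2 ratio of KO over WT preGM, less the median of all enhancers (-0.27), was -0.57 with both factors, -0.41 with PU.1, 0.03 with CEBPA and 0.17 with neither. Over all enhancers these medians were -0.52 with both factors, -0.37 with PU.1, 0.02 with CEBPA and 0.17 with neither, close to those of the members. The way the authors made the classes was not stated, and whether the WT preGM PU.1 signal entered it was not tested. Summed over all enhancers, PU.1 signal was 89027.5 in KO preGM, 140958 in WT preGM and 93176.7 in LSK. In WT preGM over LSK, which shares the WT preGM column, the member medians had the opposite signs. They were 0.38 with both factors, 0.24 with PU.1, -0.13 with CEBPA and -0.13 with neither. The pseudocount draws ratios of weak signals toward 0, and its part in these medians was not tested. Per gene, 1 member was at least 2-fold higher and none lower, against 0.782% of all genes, and 1 was higher and 1 lower without the subtraction. That member was Usp5, which takes apart free ubiquitin chains, with 2.14 in KO and 0.683 in WT preGM from 1 enhancer. That enhancer is 34 bp wide and in the class with neither factor, and the call was lost with a pseudocount 4 times larger (0.78) and when enhancers under 50 bp were left out. Ube2e1 had the highest PU.1 signal of all members and the lowest ratio among the stronger ones, at 9.88 in KO and 20.4 in WT preGM (-0.61).

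**Figure D5:**
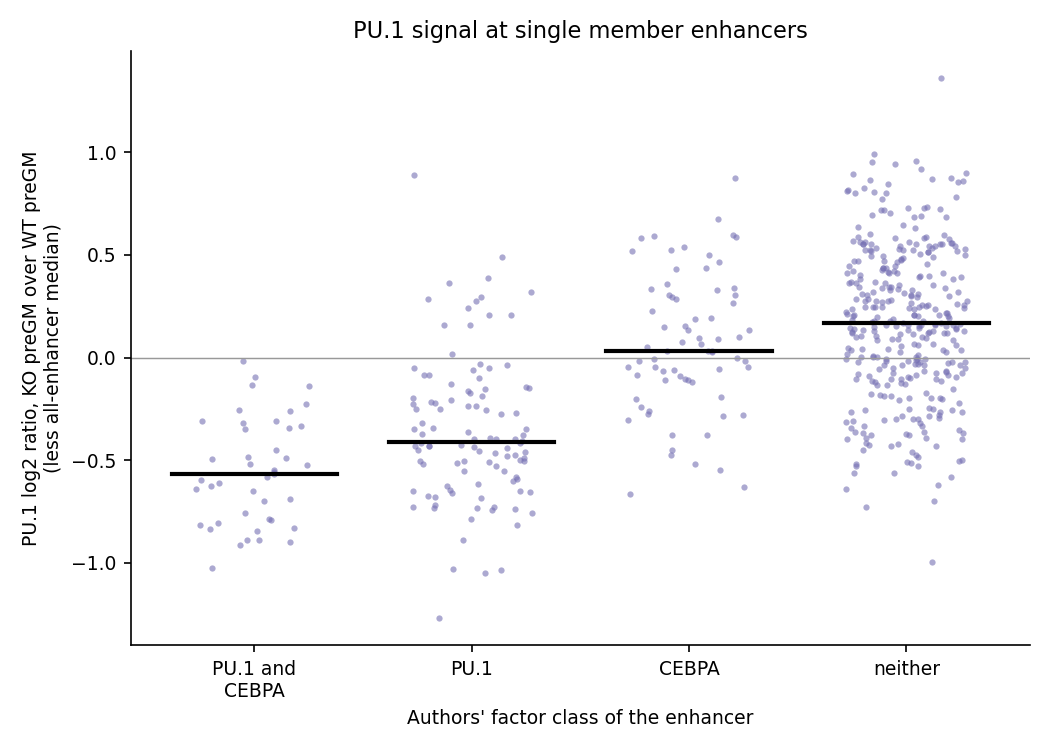
PU.1 log2 ratio in KO over WT preGM, less the all-enhancer median, at each of the 567 member enhancers, by the authors' factor class, with class medians as bars. The medians are -0.57 with both factors, -0.41 with PU.1, 0.03 with CEBPA and 0.17 with neither.

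The strongest CEBPA enhancers among the members sat at Rnf genes. A pair of neighbours at Rnf144a, chr12:27083459-27083623 and chr12:27083160-27083234, had a CEBPA signal of 13.1 and 12.6 in WT preGM, each above 99.97% of all enhancers, and one at Rnf149 (chr1:39634106-39634428) had 11.6. Their H3K27ac in WT preGM was 0.663 and 0.702. In the first of the pair it was 1.93 in granulocytes and 0.573 in GMP, and in the second 2.11 in granulocytes and 0.494 in GMP. At the Rnf149 enhancer H3K27ac was 6.15 in KO preGM and 7.38 in WT preGM, beside 2.84 in LSK, 10.4 in GMP and 8.78 in granulocytes. An enhancer of Rnf6 (chr5:147060459-147060555) followed with 4.11. In all, 26 member enhancers (4.59%) were in the top 5% of CEBPA signal and 28 (4.94%) in the top 5% of PU.1 signal, close to the share of any enhancer. Per gene, the highest mean CEBPA signal of each family was at Trim46 (2.32), Rnf6 (1.81), Ube2l3 (1.44) and Usp14 (1.07).

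The strongest PU.1 enhancer was at Rnf220 (chr4:117150809-117150984), where PU.1 was 35.9 in KO preGM and 63.7 in WT preGM, beside 37.4 in LSK and 51.0 in GMP. Its H3K27ac was 1.45 in LSK, 1.61 in WT preGM, 1.49 in GMP and 0.581 in granulocytes. The next, at Usp3 (chr9:66447124-66447614), had a PU.1 signal of 19.5 in KO and 37.4 in WT preGM. Rnf166 held 3 of the 10 strongest, between 25.5 and 34.1 in WT preGM, all within chr8:124997856-124998689. All 10 had a negative PU.1 ratio in KO over WT preGM, but they were picked by their WT preGM signal, which is part of that ratio.

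Other genes of the pathway, outside the symbol pattern, are given for expression in granulocytes over GMP, where 29.9% of all genes were at least 2-fold different. Of the 13 cullin-RING genes listed there, 1 was higher in expression and 5 lower (median -0.88). Skp2, a substrate receptor that drives the cell cycle, was 49.8 in granulocytes and 687 in GMP, and Cul3 was 1373 in granulocytes and 543 in GMP. Of 29 proteasome subunits 3 were higher and 6 lower, among them the interferon-inducible Psmb9 (1209 in granulocytes, 244 in GMP) and Psma5 (783 in granulocytes, 3535 in GMP). In preGM over LSK 27 of the 29 had a positive ratio (median 0.35), against 50% of all genes, although 1 alone reached 2-fold. So had 10 of the 13 cullin-RING genes and 11 of the 16 other deubiquitinases, but only 13 of the 26 other RING ligases. Of 6 ubiquitin and E1 genes 1 was higher and 2 lower. The higher was Uba7, the E1 of ISG15 (562 in granulocytes, 101 in GMP). Other RING ligases had 2 higher and 6 lower of 26, other deubiquitinases none higher and 4 lower of 16, and HECT ligases 1 higher and 1 lower of 13. The proteasome, other RING and other deubiquitinase counts were near the share of all genes. In KO over WT preGM none of the genes of these 6 lists passed.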

How the data were processed

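ChIP-seq values came from a table of enhancers deposited by the authors, with 1 linear signal value per enhancer and group. Per the submitters' processing notes the ChIP-seq tools were Bowtie2, MACS2 and bedtools. Per the submitters' processing notes the authors used STAR, featureCounts, DESeq2 and bedtools for their RNA libraries. The notes name build mm9 and give no versions. How libraries were pooled or scaled into the deposited signal, and the depth behind it, was not given in the sources used here, so no counting interval was computed. Of 32 value columns 21 were used. The other 11 were not: 6 hold a quantity the labels do not describe and 5 match no listed sample. The CFU-G, CFU-M and monocyte samples were not analysed here.

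ChIP signal was averaged over each gene's enhancers and expression taken once per gene. Pseudocounts were 0.7 (H3K27ac), 2 (H3K4me1), 0.6 (PU.1) and 40 (expression), the 25th percentile of the assay's values rounded to 1 significant digit. The unit of the deposited expression values was not stated. Ratios were computed over all 10096 genes, or all 44002 enhancers, before the members were read out. As each group has 1 value, no test was run. The pattern that picks the members uses no values, but the pattern and the gene lists were chosen with earlier results of these data known. The naming rule took, per comparison, the 4 highest and the 4 lowest members by ratio among those with at least the all-gene median signal in the higher group, listed members at least 2-fold different, and the top members of each family. Several of those it took that did not reach 2-fold are left out of the text. Other members, and all single enhancers, were named after their values were seen. All 141 symbols matched the reference table. Promoters came from RefSeq (GRCm38.p6), first listed start per gene, and Rnf11 and Ube2e3 are named only. Alternatives are given in the closing section. Steps were tested on simulated data with planted differences larger than 2-fold, so the precision of the 2-fold calls was not tested. Python 3.11.15, pandas 2.3.3, numpy 2.4.6 and matplotlib 3.10.9 were used.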

Additional observations from a re-analysis of the deposited data

How the results depend on the processing

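No paired analysis was possible because the table holds 1 value per group, and leaving out a replicate could not be run for the same reason. The 55 expression differences between granulocytes and GMP stayed within 1.5 times, at 41 to 79 under the settings tried. Of 482 repeats of the 99 member values that were at least 2-fold, 442 shifted by less than 1.5-fold, 40 by more and 0 changed direction. Many of these repeats could hardly move a value. Settings that only filter genes change the subtracted median and not the member's own ratio. For a member with 1 enhancer the strongest enhancer is the mean. These counts are therefore no measure of how stable the values are. Counts below are members at least 2-fold different, higher and lower together. ChIP calls rested on few enhancers: 20 of 36 came from members with 1 enhancer. With members of at least 2 enhancers only, chosen after seeing the data, the H3K27ac counts were 0 (preGM over LSK), 1 (GMP over preGM), 9 (granulocytes over GMP) and 0 (KO over WT preGM), H3K4me1 in granulocytes over GMP 5, and PU.1 0 in both GMP over preGM and KO over WT preGM.

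With a pseudocount 4 times smaller, H3K27ac counts were 6 (preGM over LSK), 8 (GMP over preGM) and 28 (granulocytes over GMP), H3K4me1 14 in granulocytes over GMP, PU.1 1 in preGM over LSK, and expression 3 (preGM over LSK), 11 (GMP over preGM) and 2 (KO over WT). With one 4 times larger, H3K27ac counts were 0 (preGM over LSK), 1 (GMP over preGM), 3 (granulocytes over GMP) and 0 (KO over WT), H3K4me1 0 in granulocytes over GMP, PU.1 0 in GMP over preGM and in KO over WT, and expression 0 (preGM over LSK) and 2 (GMP over preGM). Without the subtraction of the median, H3K27ac counts were 13 (GMP over preGM) and 1 (KO over WT), H3K4me1 5 in granulocytes over GMP, and PU.1 1 (preGM over LSK) and 2 (KO over WT). With the strongest enhancer per gene PU.1 counts were 1 (preGM over LSK), 2 (GMP over preGM) and 2 (KO over WT). With enhancers at least 50 bp wide PU.1 in KO over WT was 0, and with genes above the 25th percentile H3K27ac in preGM over LSK was 1. At 1.5-fold the counts were 18 (preGM over LSK), 22 (GMP over preGM), 46 (granulocytes over GMP) and 8 (KO over WT) for H3K27ac, and 1 (GMP over preGM) and 19 (granulocytes over GMP) for H3K4me1. For PU.1 they were 5 (preGM over LSK), 3 (GMP over preGM) and 10 (KO over WT), and for expression 18 (preGM over LSK), 29 (GMP over preGM) and 4 (KO over WT). The depth behind the values is unknown, and so is their precision.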
